A study of Mus musculus with 6 samples.

Results

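The genes described here are the lectin-like receptors of natural killer (NK) cells in the mouse spleen, together with 2 receptors that are read beside them. They were taken by symbol: every gene of the deposited table whose name begins with Klra, Klrb, Klrc, Klrd, Klre, Klrg, Klrh, Klri or Klrk, plus Ncr1 and Cd244, the gene now called Cd244a, which was matched by its gene identifier. This gave 31 genes of the 26452 in the table, and all 31 had a value above 0 in at least 1 library. The study measured RNA in whole spleens by sequencing and compared 3 mice lacking Was, the gene of the Wiskott-Aldrich syndrome protein (129S6/SvEvTac-Wastm1Sbs/J, Was -/-), with 3 wild-type 129S6/SvEvTac mice. All 6 were males of 10 weeks for which no treatment is listed, and each library came from 1 mouse. The knockout affects the whole animal, so no cell type of the spleen was targeted on its own. Libraries are named by the animal numbers, WT453, WT454 and WT455 for wild type and KO451, KO452 and KO457 for knockout, and values of 3 libraries follow in that order throughout.

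NK cells decide whether to kill by adding up signals from inhibitory and activating receptors. In the mouse, most of these are C-type lectin-like proteins encoded side by side in the NK gene complex on chromosome 6. Inhibitory members carry a tyrosine motif in their cytoplasmic tail, the immunoreceptor tyrosine-based inhibitory motif (ITIM), which recruits phosphatases. Activating members lack it and signal through partner proteins such as Tyrobp (DAP12) and Hcst (DAP10). The Wiskott-Aldrich syndrome protein drives actin assembly in blood cells, including at the contact between an NK cell and its target.

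The split between inhibitory and activating Ly49 receptors, the Klra genes, can be read in the first bases of their coding sequence. The first 39 coding bases of 7 of them are given to show codon 8, in capitals, which is a tyrosine codon of the ITIM (TAC or TAT) in the inhibitory receptors and a phenylalanine codon (TTC) in the activating receptors Klra4 and Klra8. They are read 5′ to 3′ from the GENCODE M21 transcripts of the GRCm38 reference, on the minus strand of chromosome 6.
Klra2 (chr6:131245288-131245326): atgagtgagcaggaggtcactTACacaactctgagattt
Klra3 (chr6:130335761-130335799): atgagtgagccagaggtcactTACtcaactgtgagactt
Klra7 (chr6:130231579-130231617): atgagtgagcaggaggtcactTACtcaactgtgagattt
Klra9 (chr6:130191263-130191301): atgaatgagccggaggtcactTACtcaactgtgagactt
Klra17 (chr6:129874869-129874907): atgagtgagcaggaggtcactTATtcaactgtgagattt
Klra4 (chr6:130065264-130065302): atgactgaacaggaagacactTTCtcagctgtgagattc
Klra8 (chr6:130128122-130128160): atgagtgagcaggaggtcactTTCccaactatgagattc
Of the 11 Klra genes with a complete coding sequence in that annotation, 9 have a tyrosine codon there and 2 a phenylalanine codon.

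The same likeness limits how reads can be assigned. Coding sequences of Klra10 and Klra9 are 96.9% identical, and those of Klra3 and Klra9 95.9%. Of all windows of 50 bases in the exons of a member, 10 members share none with another gene, 13 share over 10% of theirs, and the largest share is 39.8%, in Klra10. Klrc1 shares 38.6% of its windows, mostly with Klrc2, and Klra8 shares 33.1%, mostly with Klra14-ps. Exons of Klrb1b and Klrb1c also overlap the exons of Gm44511. How the authors counted reads that match several genes is not given in the sources used here, so the split within such pairs is uncertain. The reference is that of the C57BL/6J strain, and the number and sequence of Ly49 genes are known to differ between mouse strains, so a Klra symbol here may stand for reads of a related 129 gene.

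The libraries held between 30661759 and 38402758 assigned reads. Values are normalized counts, which are reads divided by the authors' size factor of the library, and fold changes are differences of mean log2(normalized count + 1), knockout minus wild type. Tests are limma with a trend over 22071 genes whose mean normalized count was at least 1, and adjusted p-values are Benjamini-Hochberg values over all of these. Each p-value reflects how far these 6 animals spread. The targeted gene Was had 4142, 6561 and 6279 in the wild-type libraries and 508, 407 and 409 in the knockout libraries (log2 fold change -3.66 ± 0.25 (SE), limma adjusted p = 0.0117). Some Was reads thus remained in the knockout libraries. For Was the adjusted p was 0.005 without WT453, and 0.125 to 0.446 without any 1 of the other 5 libraries. Only 2 genes in all had an adjusted p under 0.05, which is 0.00906% of those tested. B and T cell markers were abundant in summed CPM, which is the usual scaling of reads to library depth. The 10 B cell genes summed to 1613 to 5844 CPM in the wild-type and 1609.7 to 3425 CPM in the knockout libraries. The 14 T cell genes summed to 786 to 2021 CPM in the wild-type and 632 to 1268 CPM in the knockout libraries.

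Most of the receptors had lower means in the knockout spleens, and no single member passed the adjusted threshold. The 31 genes together took 214, 381 and 354 CPM in the wild-type libraries and 161, 249 and 178 CPM in the knockout libraries, means of 316 ± 89.8 and 196 ± 46.8 CPM (SD, n = 3). The lowest wild-type library, WT453, lay between knockout libraries, so the groups overlapped. The mean log2 of these sums differed between the groups by -0.67 (knockout minus wild type), and by -0.52 when size-factor normalized counts were summed. In bulk tissue, fewer cells of a type and less RNA per cell cannot be told apart.

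Of the 31 genes, 30 passed the filter on low values. Klra11-ps did not: it had 7 reads in WT454 and 0 in the other libraries. Of the 30 tested, 27 had a lower mean in the knockout, against 52.3% of all genes tested, and 3 had a higher one (Klrg1, Klri1 and Klrc3). The 27 include Klra10, which passed the filter through wild-type libraries alone and so could only come out lower. The median log2 fold change was -0.53, beside -0.03 over all genes tested. By limma none had an adjusted p under 0.05, and the smallest was 0.349. At an unadjusted p under 0.05 there were 3 lower members (Klra13-ps, Klre1 and Klrd1), against 5.46% of all genes, and 0 higher ones, against 5.5%. voom, a count-based form of limma run on the whole reads recovered from the values, likewise gave 0 members at an adjusted p under 0.05 and 3 lower ones at an unadjusted p under 0.05. Every knockout library was below every wild-type library for 5 members (those 3, Klrc2 and Klra1), against 9.94% of all genes, and above for 0, against 9.54%. The authors' deposited table gives an FDR under 0.05 to 1 member, Klra13-ps, and to 1.73% of all genes as lower and 2.57% as higher.

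**Figure D1:**
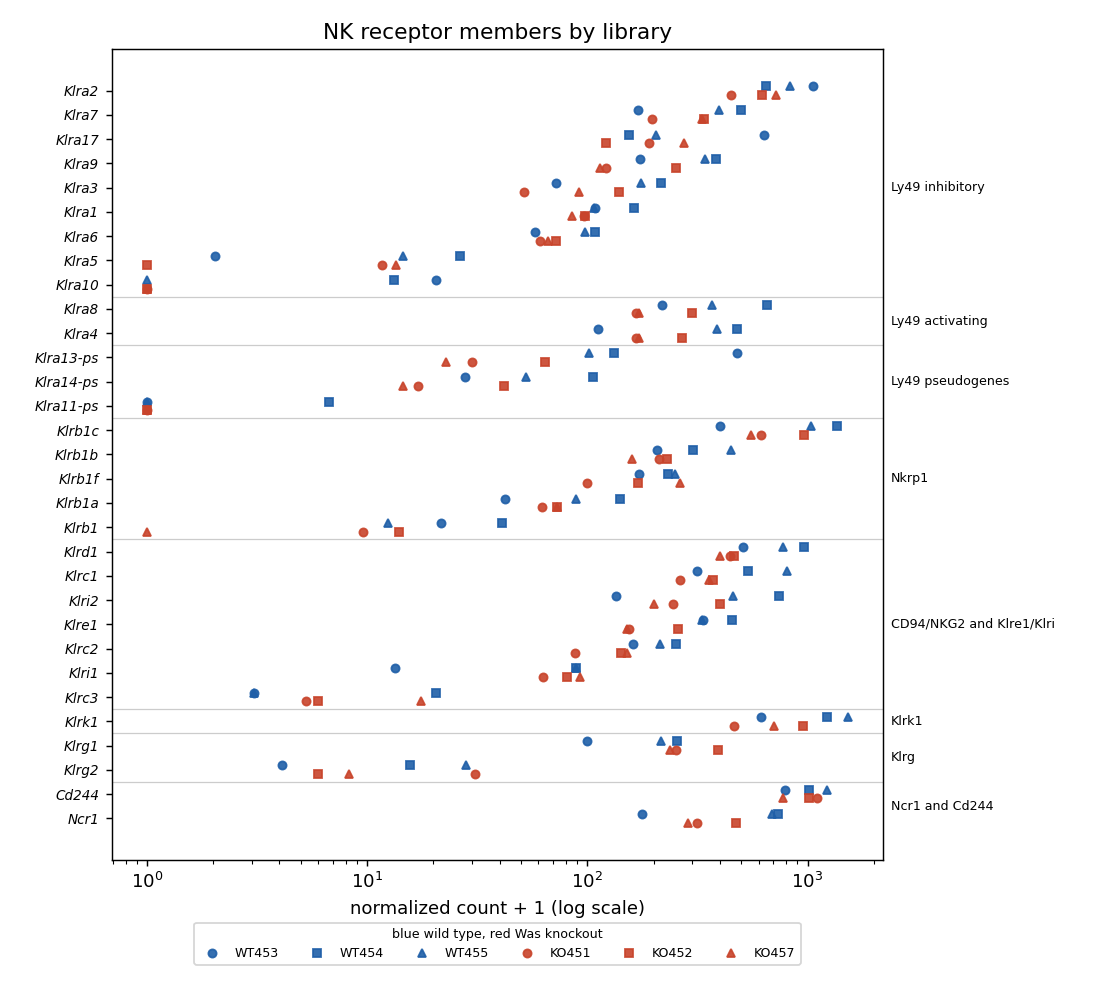
Normalized count + 1 on a log axis for each of the 31 receptor genes, 1 point per library, grouped by role. Blue points (wild type) lie mostly to the right of red points (knockout), but WT453, the blue circle, is the lowest wild-type library in 23 of the 30 tested genes.

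The 3 wild-type spleens did not stand together. WT453 was the lowest wild-type library in 23 of the 30 tested members and the highest in 4 (Klra2, Klra17, Klra13-ps and Klra10), where it was also the highest of all 6. WT454 was the highest of the 6 in 18 members and WT455 in 4, and a knockout library was the highest in 4. Among the knockout spleens, KO452 was the highest in 20 members. WT453 also stood apart in other cell types' genes. The mean deviation of WT453 from each gene's mean over the 6 libraries, in log2 units, was -0.28 for the members and -0.46 for 17 other NK and cytotoxic cell genes. It was -0.83 for T cell genes, -0.85 for B cell genes, -1.72 for 11 red pulp macrophage genes and 1.75 for 11 neutrophil genes.

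Counts over the family therefore moved with single libraries. Without WT453, 28 of 31 members tested were lower (51.3% of all genes), 15 of them had an unadjusted p under 0.05 in that direction (9.53% of all genes; higher, 9.7%), 0 had an adjusted p under 0.05, and the median log2 fold change was -0.99. Without WT454 the corresponding counts were 21 of 30 lower, with 1 at an unadjusted p under 0.05 and a median of -0.35. Leaving out WT455 gave 26 of 31, 3 and -0.35, and leaving out KO451 gave 27 of 31, 2 and -0.44. Leaving out KO452 gave 26 of 31, 5 and -0.69, and leaving out KO457 gave 27 of 31, 1 and -0.66. The median was below 0 in each of these fits. Fits over 31 members also held Klra11-ps, which was read in WT454 alone and so could only come out lower. Among the 30 members of the main fit, 27 were lower without WT453, with a median of -0.95. Shares over all genes are given only for the fit without WT453. The counts of the other fits therefore cannot be set against a rate over all genes.

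**Figure D2:**
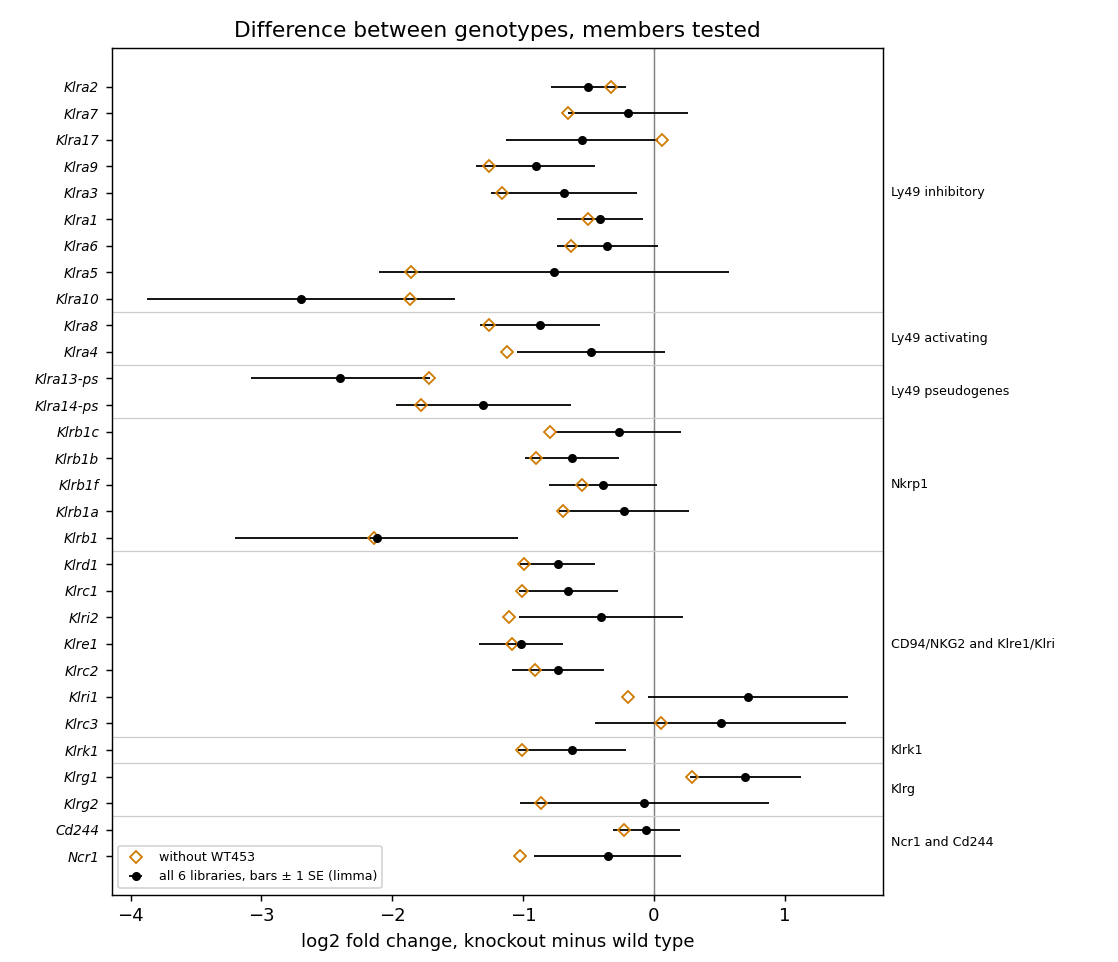
Log2 fold change (knockout minus wild type) of the 30 tested receptor genes with all 6 libraries (black points, bars ± 1 SE from limma) and without WT453 (open diamonds). Of the black points, 27 lie left of 0, and Klrg1, Klri1 and Klrc3 lie right of it; without WT453 Klri1 crosses to -0.20 and Klra17 to 0.06.

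Among the inhibitory Ly49 receptors, which read self MHC class I, the 9 genes summed to 68.7, 70.3 and 67.9 CPM in the wild-type libraries and 31.6, 49.1 and 46.4 CPM in the knockout libraries. The groups did not overlap, and all 9 had a lower mean in the knockout, but none had an unadjusted p under 0.05. Klra10, among the 9, passed the filter through wild-type libraries alone, so it could only come out lower. The closeness of the 3 wild-type sums came from 2 genes, Klra2 and Klra17, that were highest in WT453: the other 7 summed to 18, 44.8 and 35.3 CPM in the wild-type and 14.4, 26.8 and 19.1 CPM in the knockout libraries, which overlap. Both Klra2 (Ly49B) and Klra17 (Ly49Q) are known from myeloid cells and, for Klra17, plasmacytoid dendritic cells rather than from NK cells.

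Klra2, the most abundant Ly49 gene per kilobase of exon (379 normalized counts per kb over the 6 libraries), had 1054, 645 and 835 in the wild-type libraries and 450.3, 620 and 716 in the knockout libraries (log2 fold change -0.50 ± 0.28 (SE)). Its WT454 value lay within the knockout range. Klra17 had 631, 153 and 204 in the wild-type libraries and 189, 121 and 274 in the knockout libraries (log2 fold change -0.55 ± 0.58 (SE)), and the value in WT453 was far above the rest. Its fold change was 0.06 without that library. Klra7 (Ly49G) had 169, 497 and 394 in the wild-type libraries and 196, 337 and 330.4 in the knockout libraries (log2 fold change -0.20 ± 0.46 (SE)); WT453 was the lowest of all 6, and the fold change was -0.66 without it, 0.11 without WT454 and 0.06 without KO451.

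Klra10 was read in 2 wild-type spleens only, with 19.6, 12.2 and 0 normalized counts in the wild-type libraries and 0, 0 and 0 in the knockout libraries. Its wild-type mean was 3.41-fold a floor of 3 reads per knockout library, and 1.97-fold that floor without WT453. These ratios leave out the spread among the wild-type animals, and WT455 was also at 0, so the groups overlapped. Klra10 passed the filter on low values through those 2 wild-type libraries alone, so no p-value is given for it. Its coding sequence differs little from that of Klra9, so these reads cannot be placed firmly. The remaining inhibitory genes were Klra9 (-0.91), Klra3 (-0.69), Klra1 (-0.41), Klra6 (-0.36) and Klra5 (-0.76), given as log2 fold changes. Klra1 (Ly49A) was the only one of these 5 whose groups did not overlap, with 107, 162 and 106 in the wild-type libraries and 95.4, 97 and 84.1 in the knockout libraries. Klra5 was near the detection limit, at 0 to 25.3 normalized counts, and its fold change was 0.45 without KO452.

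In the reference annotation, the activating Ly49 receptors are Klra4 (Ly49D) and Klra8 (Ly49H), which pair with Tyrobp. Ly49H is known as the receptor for a viral protein of mouse cytomegalovirus. The reference is of another mouse strain, so reads under both symbols may come from related genes of the mice studied. Klra8 also shares 33.1% of its 50-base windows with other genes, mostly Klra14-ps. Which genes these reads came from was not tested. Klra4 had 111, 479.7 and 385 in the wild-type libraries and 165, 269 and 170.4 in the knockout libraries (log2 fold change -0.48 ± 0.57 (SE); -1.13 without WT453). Klra8 had 216, 656 and 366 in the wild-type libraries and 165, 299 and 170.4 in the knockout libraries (log2 fold change -0.87 ± 0.46 (SE), limma unadjusted p = 0.0984; -1.26 without WT453). In both genes WT454 and WT455 lay above all 3 knockout libraries, while WT453 fell below the highest of them.

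The Klra pseudogenes held the member with the smallest p. Klra13-ps had 475, 131 and 101 in the wild-type libraries and 28.9, 63 and 21.8 in the knockout libraries, means of 235 ± 208 and 37.9 ± 22 (SD, n = 3), with -2.40 ± 0.68 (SE) as log2 fold change (limma adjusted p = 0.349). All 3 knockout libraries were below all 3 wild-type libraries. The authors' deposited table gives it an FDR of 0.00416. The wild-type mean rested largely on WT453, and without it the fold change was -1.72, still below 0; over the 6 fits with 1 library left out it ran from -2.83 to -1.72. It shares 13.7% of its 50-base windows with other genes, chiefly Klra7. Which gene the shared reads came from was not tested. Klra14-ps had 26.8, 105 and 51.9 in the wild-type libraries and 16.1, 41 and 13.5 in the knockout libraries (log2 fold change -1.30 ± 0.67 (SE)), and the groups overlapped.

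The Nkrp1 receptors (Klrb1 genes) bind lectin-like Clec2 proteins rather than MHC class I, and all 5 had a lower mean in the knockout. Klrb1c, the activating NK1.1 gene, had 401, 1362 and 1040 in the wild-type libraries and 612, 961 and 551 in the knockout libraries (log2 fold change -0.27 ± 0.48 (SE)). Klrb1b, an inhibitory receptor for Clec2d, had 206, 301 and 449.9 in the wild-type libraries and 210.1, 228 and 158 in the knockout libraries (log2 fold change -0.63 ± 0.36 (SE)). Klrb1f, an activating receptor, had 170.1, 233 and 249 in the wild-type libraries and 98.6, 169 and 263 in the knockout libraries (log2 fold change -0.39 ± 0.41 (SE)). The groups overlapped in each of these 3, and without WT453 their fold changes were -0.79, -0.90 and -0.55. Klrb1c was 0.09 without WT454. Klrb1a (-0.23; 0.17 without WT454) and the sparsely read Klrb1 (-2.12) made up the rest.

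CD94 and the NKG2 proteins form heterodimers that read the class Ib molecule Qa-1. Klrd1, the CD94 chain shared by all of them, had the highest level per kb of the family (462 normalized counts per kb). It had 508, 964 and 775 in the wild-type libraries and 443, 463 and 399 in the knockout libraries, a 1.67-fold lower level in the knockout on the log2 scale (log2 fold change -0.74 ± 0.29 (SE), limma unadjusted p = 0.0354, adjusted p = 0.424). Its 3 knockout libraries lay close together and below every wild-type library. Klrc1, the inhibitory NKG2A chain, had 314, 534 and 809 in the wild-type libraries and 262, 373 and 356 in the knockout libraries (log2 fold change -0.65 ± 0.38 (SE)), with WT453 inside the knockout range. Klrc2, the activating NKG2C chain, had 161, 251 and 212 in the wild-type libraries and 86.8, 141 and 151 in the knockout libraries (log2 fold change -0.73 ± 0.35 (SE)), and the groups did not overlap. Klrc3 was near the detection limit, with 2.06, 19.6 and 2.08 in the wild-type libraries and 4.29, 5 and 16.6 in the knockout libraries (log2 fold change 0.51 ± 0.96 (SE); -0.04 without KO457).

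Klre1 is a receptor chain without signalling motifs of its own that pairs with Klri1, which is inhibitory, or with Klri2, which is activating. It had 333, 452.8 and 329 in the wild-type libraries and 153, 257 and 151 in the knockout libraries (log2 fold change -1.02 ± 0.32 (SE), limma unadjusted p = 0.0144, adjusted p = 0.356), without overlap. It was among the least affected by WT453, with a fold change of -1.09 without it, and the authors' deposited table gives an FDR of 0.0529. Its partners had fold changes of opposite sign. Klri2 had 134, 738 and 458 in the wild-type libraries and 244, 398 and 199 in the knockout libraries (log2 fold change -0.41 ± 0.63 (SE); 0.12 without WT454). Klri1 had 12.4, 88.1 and 88.3 in the wild-type libraries and 62.2, 80 and 91.4 in the knockout libraries (log2 fold change 0.72 ± 0.77 (SE)). Of the 6 Klri1 values, 5 lay between 62.2 and 91.4, and the positive fold change came from WT453; without that library it was -0.20.

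Klrk1 (NKG2D), an activating receptor for stress-induced ligands that signals through Hcst and Tyrobp, had 616, 1220.5 and 1528 in the wild-type libraries and 461, 957 and 706 in the knockout libraries (log2 fold change -0.63 ± 0.41 (SE), limma unadjusted p = 0.172; -1.01 without WT453). KO451 was the lowest and WT455 the highest, with overlap between WT453 and the knockout libraries.

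Klrg1, an inhibitory receptor for cadherins that marks mature NK cells and effector T cells, stood on the other side. It had 98.9, 255 and 214 in the wild-type libraries and 251, 390 and 237 in the knockout libraries, means of 189 ± 80.7 and 293 ± 84.7 (SD, n = 3), with 0.70 ± 0.43 (SE) as log2 fold change (limma adjusted p = 0.561). WT453 was lowest, KO452 highest, and WT454 lay above KO451 and KO457. Its fold change was above 0 in all 6 fits with 1 library left out, from 0.29 to 0.96. Klrg2, a sparsely read relative, had 3.09, 14.7 and 27 in the wild-type libraries and 30, 5 and 7.27 in the knockout libraries (log2 fold change -0.07 ± 0.95 (SE)), and its sign varied between fits.

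The last 2 receptors are not lectin-like. Ncr1 (NKp46), an immunoglobulin-like activating receptor that defines NK cells, had 176, 730.2 and 688 in the wild-type libraries and 313, 472 and 287 in the knockout libraries (log2 fold change -0.35 ± 0.56 (SE)). WT453 was the lowest of all 6 libraries and WT454 and WT455 the 2 highest, and the fold change was -1.02 without WT453 and 0.00094 without WT454. Cd244 (2B4), a receptor for Cd48 that is also found on T cells and myeloid cells, had 785, 1015 and 1223 in the wild-type libraries and 1105, 1012 and 772 in the knockout libraries (log2 fold change -0.06 ± 0.26 (SE); 0.09 without WT455 or without KO457).

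Because Klrg1 and the other receptors went different ways, Klrg1 was set against 3 of them within each library; these ratios were chosen after the values had been seen. Klrg1 per Ncr1 was 0.561, 0.349 and 0.311 in the wild-type libraries and 0.801, 0.826 and 0.826 in the knockout libraries, means of 0.407 ± 0.135 and 0.818 ± 0.0143 (SD, n = 3), a 2.01-fold difference. Klrg1 per Klrb1c was 0.247, 0.187 and 0.206 against 0.410, 0.406 and 0.430, a 1.95-fold difference. Klrg1 per Klrd1 was 0.195, 0.264 and 0.276 against 0.567, 0.842 and 0.594, a 2.73-fold difference. The groups did not overlap in any of the 3. Of all genes tested, 6.86% were likewise higher without overlap per Ncr1, 6.61% per Klrb1c and 30.6% per Klrd1, so many other genes share this pattern.

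**Figure D3:**
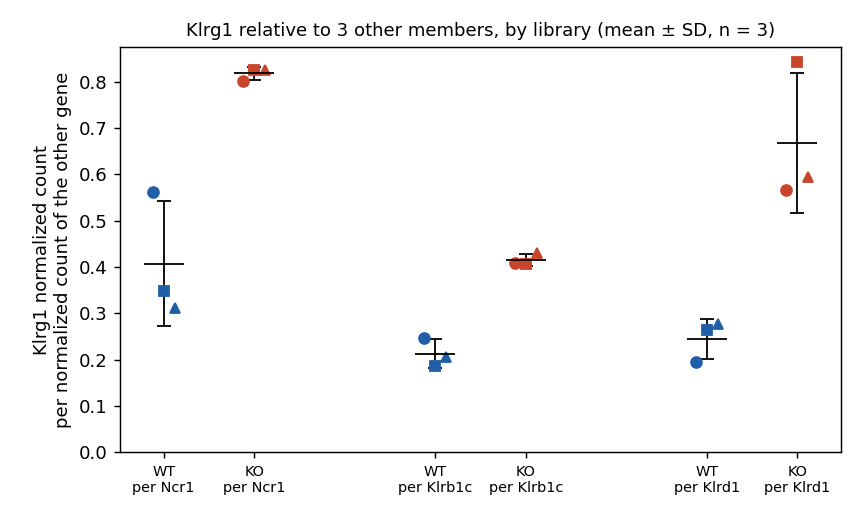
Klrg1 normalized count divided by that of Ncr1, Klrb1c or Klrd1 in the same library, 1 point per library (blue wild type, red knockout), with mean ± SD (n = 3); the axis starts at 0. Per Ncr1 the knockout libraries lie at 0.801 to 0.826 and the wild-type libraries at 0.311 to 0.561.

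Each member was also set against the mean log2 value of the 17 NK and cytotoxic cell genes in the same library. On that scale 27 of the 30 tested members overlapped between the groups. Klrg1 was higher in every knockout library (-1.62, -1.20 and -1.51 in wild type, -0.31, -0.12 and -0.66 in knockout, a difference of 1.08), and so was Klri1 (difference 1.10), against 14.5% of all genes. Klra13-ps was lower in every knockout library (difference -2.02), against 2.67% of all genes. Its values were 0.64, -2.16 and -2.59 in wild type and -3.38, -2.73 and -4.04 in knockout. Those of Klri1 were -4.52, -2.72 and -2.78 in wild type and -2.31, -2.39 and -2.03 in knockout. In both genes WT453 lay farthest from the knockout libraries, so both differences rest largely on it.

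The 17 NK and cytotoxic genes, which include the granule genes and Fcgr3 that other cells also express, summed to 534 to 753 CPM in the wild-type and 361 to 555 CPM in the knockout libraries. Of these, 13 were lower and 4 higher in the knockout, the median log2 fold change was -0.40 (-0.78 without WT453), 3 lower genes had an unadjusted p under 0.05 (9 without WT453), and 0 passed the adjusted threshold. T and B cell genes were also mostly lower in mean: 13 of 14 T cell genes were lower (median -0.59; 2 at an unadjusted p under 0.05) and 10 of 10 B cell genes (median -0.64; 1). Without WT453 the medians were -0.99 for T cell genes, with 12 at an unadjusted p under 0.05, and -1.16 for B cell genes, with 10. By contrast 10 of 10 erythroid genes were higher (median 2.86; 10 at an unadjusted p under 0.05), summed at 529 to 1285 CPM in the wild-type and 2807 to 10986 CPM in the knockout libraries, and so were 11 of 11 red pulp macrophage genes (median 1.27; 6), summed at 1485 to 5419.6 CPM in the wild-type and 5459 to 9706 CPM in the knockout libraries. WT453 was the lowest of the 6 libraries in all 11 macrophage genes; without it their median was 0.70, 4 were higher at an unadjusted p under 0.05 and 1 had a lower mean. Neutrophil genes summed to 5686 to 91725 CPM in the wild-type and 12728 to 57972 CPM in the knockout libraries, with WT453 the highest. The mean of these sums was lower in the knockout (29920.5 CPM) than in wild type (36167.5 CPM). By mean log2 value 9 of 11 neutrophil genes were higher (median 0.57, and 1.70 without WT453). At an unadjusted p under 0.05 there were 1 lower and 0 higher, and 1 lower and 7 higher without WT453. Among all genes tested, 5.46% were lower and 5.5% higher at that threshold, and 9.53% and 9.7% without WT453. Those shares also stand beside the counts of the gene lists below. None of the listed genes here was at 0 in every library, and by limma 0 in any of these lists passed the adjusted threshold. The part of these other cells' RNA in the lower values of the receptors was not tested.

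**Figure D4:**
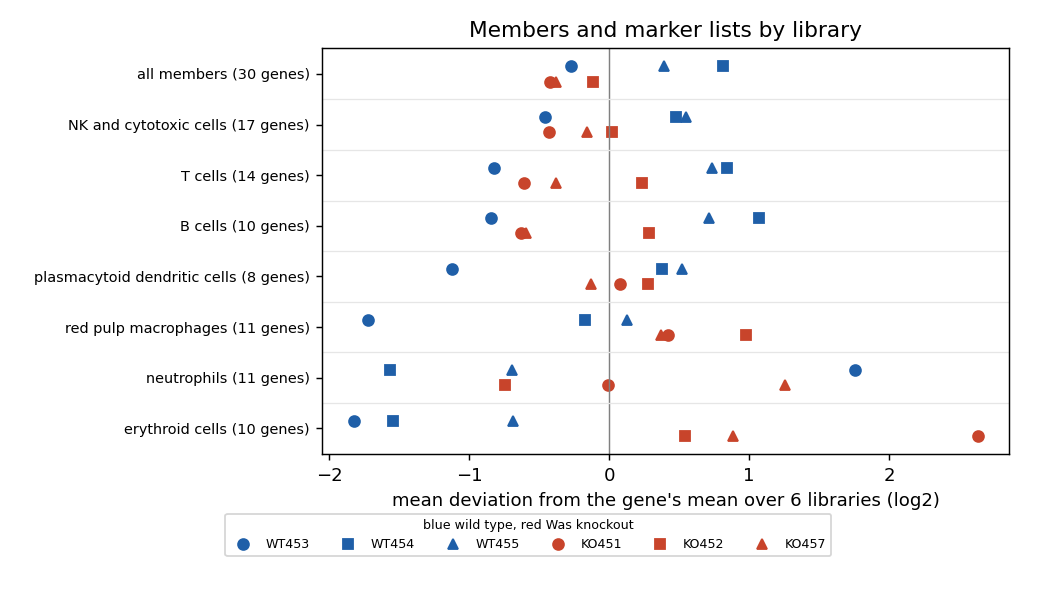
Mean deviation of each gene from its mean over the 6 libraries, in log2 units, averaged over the receptors and over each marker list, 1 point per library (blue wild type, red knockout). WT453 lies within the knockout range for the receptors (-0.28), below every knockout library for NK, T and B cell genes, and above all other libraries for neutrophil genes (1.75).

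Plasmacytoid dendritic cell genes, which bear on Klra17, summed to 189 to 709 CPM in the wild-type and 302 to 517 CPM in the knockout libraries; 3 of 8 were lower and 5 higher (median 0.09; -0.45 without WT453). WT453 was the lowest wild-type library for all 8. Klra17 was highest in WT453 (631) and next in KO457 (274). The mean deviation of the neutrophil genes was also highest in WT453 (1.75) and next in KO457 (1.26). Which cells the Klra17 reads came from was not tested.

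Signalling partners of the receptors did not follow one direction. Of 14 adaptor and proximal signalling genes, 10 were lower and 4 higher (median -0.29), 1 in each direction at an unadjusted p under 0.05 (4 lower and 2 higher without WT453) and 0 at an adjusted one by limma. Hcst, the Klrk1 partner, had 1108, 734 and 801 in the wild-type libraries and 442, 487 and 697 in the knockout libraries (log2 fold change -0.71 ± 0.28 (SE), limma unadjusted p = 0.0369), without overlap. Sh2d1b1, an EAT-2 adaptor that docks to Cd244, had 328, 689 and 647 in the wild-type libraries and 1599, 1102 and 942 in the knockout libraries (log2 fold change 1.17 ± 0.36 (SE), limma adjusted p = 0.355). All 3 knockout libraries were above all wild-type libraries, and the authors' deposited table gives an FDR of 0.0346. Syk, the gene of the list with the highest mean count (not per kb), had a log2 fold change of -0.26. Tyrobp, chosen after its values were seen because it serves several members and is abundant in myeloid cells, had 9899.9, 9777 and 10760.3 in the wild-type libraries and 12054, 12523 and 16911 in the knockout libraries (log2 fold change 0.43 ± 0.20 (SE)), without overlap.

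Of 21 ligand genes listed, 15 were matched in the table and 14 tested: 9 were lower and 5 higher (median -0.26), with 3 lower and 2 higher at an unadjusted p under 0.05 (3 and 1 without WT453) and 0 at an adjusted one by limma. Clec2i, a ligand of Nkrp1 receptors, had 1402, 869 and 641 in the wild-type libraries and 259, 495 and 250.4 in the knockout libraries (log2 fold change -1.53 ± 0.39 (SE), limma adjusted p = 0.344). The groups did not overlap, and the authors' deposited table gives an FDR of 0.00553. H60b, a Klrk1 ligand, had 7.21, 11.4 and 5.19 in the wild-type libraries and 0, 3 and 1.04 in the knockout libraries (log2 fold change -2.09 ± 0.75 (SE)), and H2-D1, a class I gene and the one of the list with the highest mean count, a log2 fold change of -0.20. Clec2d, the Klrb1b ligand, which was named after its values were seen, had 4270.2, 4420.1 and 3569.8 in the wild-type libraries and 1599, 3496 and 2566 in the knockout libraries (log2 fold change -0.74 ± 0.30 (SE)), with every knockout library below every wild-type library.

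Of 17 genes of NK cell development and cytokine receptors, 13 were lower and 4 higher (median -0.32), with 0 at an unadjusted p under 0.05 in either direction (6 lower without WT453) and 0 at an adjusted one by limma. Il18r1 (-0.66), Tox2 (0.86) and Il2rg (-0.60) stood first by the rule for naming, as log2 fold changes. Eomes and Tbx21, transcription factors of the list that were named after their values were seen, had -0.81 ± 0.42 (SE) and -0.45 ± 0.49 (SE). The groups overlapped in both, and Tbx21 was highest of the 6 libraries in KO452 (1135). Zeb2 (1.12 ± 0.59 (SE); 0.38 without WT453) and Il12rb2 (1.09 ± 1.03 (SE); -0.20 without WT453), likewise named after their values were seen, had higher means in the knockout.

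Other genes of the NK gene complex were divided in direction. From the first to the last lectin-like member of the cluster, the interval chr6:128609227-131247362 (GRCm38, 2.64 Mb) holds 27 of the 31 members. Of these, 26 were tested and 24 were lower, Klra10 among them (median -0.63; -1.0 without WT453). The 41 other genes of the table there gave 32 tested, 17 lower and 15 higher (median -0.02; 0.22 without WT453). Only 16 of the 41 are protein-coding, and of these 14 were tested, 8 lower and 6 higher (median -0.06, and 0.36 without WT453). At an unadjusted p under 0.05 the 32 held 3 lower and 4 higher genes, against 5.46% and 5.5% of all genes tested. The lower ones were Clec2i, Clec2d and Cd69, and the higher ones Gabarapl1, Clec1b, BC035044 and the sparsely read Clec2f. Outside the interval lie Klrg1 (chr6:122270596-122282882) and Klrg2 (chr6:38625693-38637242), Ncr1 (chr7:4337724-4345164) and Cd244 (chr1:171559193-171609746).

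Ordered by level per kb of merged exon over all 6 libraries, Klrd1 (462) came first, followed by Klra2 (379), Ncr1 (289), Klrb1c (277), Klra8 (265), Klra7 (253), Klrc1 (222), Klra17 (219.8), Klra4 (212) and Cd244 (202), in normalized counts per kb. Of the 30 neighbouring pairs in the order of all 31, 29 differed by less than the larger of their 2 SDs over the 6 libraries, all pairs among these first 10 included. Klrg2 (4.24) and Klra11-ps (1.18) came last. Of the 31 genes, 21 had a mean of at least 100 normalized counts, and the whole family made up 0.0256% of assigned reads, so the precision of single members is limited by the number of animals and, for the sparsest, by read number.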

How the data were processed

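RNA of 6 mouse spleens, 3 per genotype, was sequenced from mRNA libraries, per the labels' protocols. Tools listed in the submitters' processing notes, with no role for any, are STAR 2.5.3a, FastQC 0.11.5, DESeq and StringTie 1.3.1c, and the build is GRCm38. Strand setting, filters, annotation and the counting of reads were not given in the sources used here. For each gene and library the authors deposited a log2 value, which is log2(normalized count + 1), and their own log2 fold change, p-value and FDR. That reading came from the values: after removing the log, 100% were whole multiples of 1 step per library within 0.001, which gave whole reads, CPM and depths (30661759 to 38402758).

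Differences were tested with limma 3.58.1 in R 4.3.3, with an intensity trend and a 2-group model on the deposited log2 values, for genes with a mean normalized count of at least 1, with Benjamini-Hochberg adjustment over 22071 genes and a threshold of 0.05; the script was tested on simulated data. Alternatives were a pseudocount of 0.1, no filter, a filter of 10, quantile normalization, voom on recovered reads and leaving out each library. Exon lengths, coordinates and sequences came from GENCODE M21, in which all 31 members were matched by gene identifier. The members and lists were chosen with earlier results of these data known.

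Members given by library were, by rule, up to 3 per role with the highest level per kb, the 5 with the smallest p in each direction and those whose FDR in the authors' deposited table was under 0.05; lists name up to 2 genes with the smallest p and 1 with the highest mean, and 1 gene that this rule names is not reported here. The knockout columns of the deposited table carry a suffix that the wild-type columns lack and whose meaning is not stated.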

Additional observations from a re-analysis of the deposited data

How the results depend on the processing

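Of 328 alternative values of single members, 311 kept their direction and their side of the threshold, 17 changed direction and 0 came to pass it; adjusted p-values ran from 0.190 to 0.9995. Quantile normalization gave Klrg2 0.14 (all fold changes here are log2), and voom called 1 gene in all. Over the 6 fits that left out 1 library, 0 to 2 genes were called in all, the Was fold change ran from -3.87 to -3.53 and its call was lost in 5 of them, the members' median ran from -0.99 to -0.35 and the number of lower members at an unadjusted p under 0.05 from 1 to 15. The difference in mean log2 summed abundance of the members ran from -0.93 to -0.51. Members and list genes whose direction changed when 1 library was left out were, with the range over those fits, Klri1 (-0.20 to 1.17), Klra17 (-0.96 to 0.061), Klri2 (-1.11 to 0.12), Klrg2 (-0.86 to 0.53), Klra7 (-0.66 to 0.11), Ncr1 (-1.02 to 0.00094), Klrb1a (-0.70 to 0.17), Klrb1c (-0.79 to 0.089), Fcgr3 (-0.15 to 0.29), Spib (-0.81 to 0.40), S100a9 (-0.12 to 1.95), Cd244 (-0.23 to 0.093), Klra5 (-1.85 to 0.45) and Klrc3 (-0.039 to 1.42). No paired analysis was possible because the groups share no animal numbers. Depth limits the sparsest members (Klra5, Klra10, Klra11-ps, Klrb1, Klrc3 and Klrg2), and 3 animals per group limit the rest.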

Other observations

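The genes of the other cell types' lists, chosen by the same rule as above, had these log2 fold changes, knockout minus wild type. None passed the adjusted threshold by limma. Among NK and cytotoxic cell genes they were Nkg7 -0.82 ± 0.26 (SE), Styk1 -1.25 ± 0.45 (SE) and Fcgr3 0.05 ± 0.28 (SE). For T cells the values were Lat -1.19 ± 0.32 (SE), Bcl11b -0.92 ± 0.36 (SE) and Lck -0.75 ± 0.32 (SE). B cell genes gave Blk -0.89 ± 0.38 (SE) and Cd79a -0.53 ± 0.46 (SE). Plasmacytoid dendritic cell genes gave Lair1 0.58 ± 0.25 (SE), Cox6a2 0.59 ± 0.56 (SE) and Spib -0.07 ± 0.62 (SE). In the red pulp macrophage list there were Cd5l 1.97 ± 0.39 (SE), Spic 1.27 ± 0.42 (SE) and Hmox1 0.98 ± 0.55 (SE). Neutrophil genes gave Csf3r -1.08 ± 0.31 (SE), Ly6g 0.94 ± 0.84 (SE) and S100a9 0.71 ± 1.10 (SE). Erythroid genes gave Car2 2.73 ± 0.50 (SE), Klf1 2.78 ± 0.52 (SE) and Slc4a1 3.11 ± 0.73 (SE). Of 10 pancreas genes, 3 were matched in the table. Cela1 (log2 fold change 1.11 ± 0.26 (SE)) had up to 1466 reads per library and made up nearly all of their sum, while Prss2 had 0 to 6 reads and Cpa1 0 to 5, so that both were near 0 in every library.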
